A study of Mus musculus with 2 samples.

Results

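The set described here comprises 36 genes that regulate or carry out apoptosis and related forms of cell death, out of 18159 gene symbols in the mRNA expression profile of jejunal tunica muscularis, the outer muscle coat of the jejunum. Members were taken by gene symbol and all 36 were found, each above 0 FPKM (fragments counted for a gene, scaled to transcript length and to all mapped fragments of the library) in both libraries. They were kept in 4 groups: 21 pro-apoptotic genes, 9 anti-apoptotic genes, 3 inflammatory caspases and 3 necroptosis genes.

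The study deleted *Dnmt1*, the maintenance DNA methyltransferase, in smooth muscle cells and asked how the tissue develops without it. *Dnmt1*-KO mice carried *Dnmt1* lox/lox alleles and the Cre-eGFP transgene driven by the smooth muscle myosin heavy chain promoter (*Myh11*), which is active from embryonic development onwards, and *Dnmt1*-WT mice carried the same Cre-eGFP transgene. All were on a C57BL/6 background and 15 days old (P15), and total RNA was extracted from muscle stripped off the mucosa. Each genotype had 4 mice, 2 male and 2 female, and 1 mRNA library, and the sources used here do not state how the RNA of the mice was combined. The free-text description of both libraries names the knockout, so the genotype was taken from the title and genotype labels. With 1 library for each genotype no difference has a replicate check, neither a test nor a p-value is given. Higher and lower give the plain direction of the *Dnmt1*-KO value against the *Dnmt1*-WT value, pairs of values are given in the order *Dnmt1*-WT, *Dnmt1*-KO, and ratios are *Dnmt1*-KO over *Dnmt1*-WT. Genes at a ratio of at least 1.5, or at most 0.667, were counted as a rule of size only.

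*Dnmt1* itself (ENSMUSG00000004099.16, chr9:20907209-20959888 on the minus strand of GRCm38) was 11.58 FPKM in *Dnmt1*-WT and 7.58 FPKM in *Dnmt1*-KO, a ratio of 0.655. The direction matches the labels, although only exons 4 and 5 are floxed, the rest of the transcript can still be counted and the tissue holds cells without Cre. All 8 smooth muscle markers were present in both libraries and all 8 were lower in *Dnmt1*-KO, with a sum of 19421 FPKM in *Dnmt1*-WT and 13297 FPKM in *Dnmt1*-KO. The most abundant was *Acta2* at 5408 and 4016 FPKM, and *Myh11*, *Mylk* and *Smtn* were at ratios of 0.468, 0.443 and 0.427. All 8 leukocyte markers were higher in *Dnmt1*-KO, their sum being 39.65 and 125.8 FPKM, led by *Arhgdib* at 14.22 and 42.4 FPKM, with *Cytip* listed at 0 in *Dnmt1*-WT. All 11 macrophage markers found were also higher, with sums of 155.46 and 530.24 FPKM, led by *C1qa* at 31.57 and 125.26 FPKM. From bulk values such as these, fewer cells of a type and less RNA per cell cannot be told apart.

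Apoptosis is run by a proteolytic cascade of caspases that is started either at the mitochondria or at receptors on the cell surface. In the mitochondrial pathway, BH3-only proteins neutralise the anti-apoptotic BCL2 proteins or activate BAX and BAK, which open the outer mitochondrial membrane and release cytochrome c, so that APAF1 assembles the apoptosome and activates caspase-9. In the death receptor pathway, FADD recruits caspase-8 to ligand-bound receptors, and BID carries the signal on to mitochondria, while the inhibitor of apoptosis proteins (IAPs) and cFLIP hold caspases back. Inflammatory caspases instead mature interleukin-1β or cut gasdermin D in pyroptosis, and RIPK1, RIPK3 and MLKL form the necroptosis pathway that acts when caspase-8 is blocked.

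Because the deleted enzyme maintains methylation at CpG sites, the CpG content of the members' promoters is shown before their levels. Of the 36 members, 33 had a promoter window in the RefSeq table (GRCm38.p6), and *Pmaip1*, *Bik* and *Htra2* did not. A window is the 250 bases before a RefSeq start site. Of the genes whose windows follow, *Casp4*, *Casp12*, *Bcl2a1b* and *Diablo* have a GENCODE start further upstream, by 21, 46, 64 and 12 bases. Only the bases before both starts are printed, 5′ to 3′ on the gene's strand, in lower case with each CG in capitals. *Casp1*, *Casp4* and *Casp12* are shown because they lie next to each other on chromosome 9, hold few CpG sites and were all above their *Dnmt1*-WT level in *Dnmt1*-KO. Their printed stretches, on the plus strand, are chr9:5298267-5298516, chr9:5308599-5308827 and chr9:5345226-5345429, with 1, 3 and 1 CpG sites.
Casp1: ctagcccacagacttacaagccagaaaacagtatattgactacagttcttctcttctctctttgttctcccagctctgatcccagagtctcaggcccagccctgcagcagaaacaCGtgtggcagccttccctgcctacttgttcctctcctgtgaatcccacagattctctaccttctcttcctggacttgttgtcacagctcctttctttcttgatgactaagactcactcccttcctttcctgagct
Casp4: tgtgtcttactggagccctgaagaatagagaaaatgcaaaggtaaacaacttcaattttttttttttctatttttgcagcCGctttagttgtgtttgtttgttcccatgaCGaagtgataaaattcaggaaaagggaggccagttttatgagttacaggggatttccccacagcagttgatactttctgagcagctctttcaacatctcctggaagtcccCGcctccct
Casp12: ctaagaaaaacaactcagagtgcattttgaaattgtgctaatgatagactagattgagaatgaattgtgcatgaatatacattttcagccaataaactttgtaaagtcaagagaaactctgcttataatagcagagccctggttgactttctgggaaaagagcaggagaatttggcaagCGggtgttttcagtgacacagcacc
*Bcl2a1b*, the member with the highest ratio, has 4 CpG sites in its window, 2 of them in the stretch printed, chr9:89199023-89199208 on the plus strand.
Bcl2a1b: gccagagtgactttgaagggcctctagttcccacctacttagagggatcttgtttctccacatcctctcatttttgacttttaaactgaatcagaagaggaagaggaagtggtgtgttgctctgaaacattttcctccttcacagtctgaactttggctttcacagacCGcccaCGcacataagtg
*Bax*, the most abundant member that passed 1.5-fold, has 14 CpG sites at chr7:45466899-45467148 on the minus strand, and *Diablo*, at nearly equal levels in both libraries, has 30 at chr5:123524177-123524414 on the minus strand. They are printed as members of middle and high CpG content. *Bmf*, the member with the lowest ratio, also has few CpG sites, at most 8 in a window, and is not printed.
Bax: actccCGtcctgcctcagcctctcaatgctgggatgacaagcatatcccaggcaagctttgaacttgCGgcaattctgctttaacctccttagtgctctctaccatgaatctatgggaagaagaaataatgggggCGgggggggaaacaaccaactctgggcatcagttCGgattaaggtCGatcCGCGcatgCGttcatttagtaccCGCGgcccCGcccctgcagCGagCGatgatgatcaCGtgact
Diablo: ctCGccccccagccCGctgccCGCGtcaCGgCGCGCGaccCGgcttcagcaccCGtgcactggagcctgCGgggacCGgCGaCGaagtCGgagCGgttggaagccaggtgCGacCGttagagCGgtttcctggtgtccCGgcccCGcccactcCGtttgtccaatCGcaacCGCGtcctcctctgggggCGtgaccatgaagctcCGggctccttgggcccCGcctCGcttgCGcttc

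Over all 36 members, 20 were higher in *Dnmt1*-KO, beside 50.3% of the 16102 genes above 0 FPKM in both libraries, and 16 were lower. A difference of at least 1.5 times upward was found in 11 members, or 30.6%, beside 19.7% of the 16102 genes above 0 FPKM in both libraries. Downward it was found in 3 members, or 8.33%, beside 12.6% of those genes. With each library divided by its FPKM sum, the counts were 9 up and 5 down. *Bax* and *Htra2* then came under the upper limit, and *Bcl2l11* and *Casp6* came just past the lower one. Upper quartile scaling gave 13 up and 2 down. Centring on transcript length or GC content also put *Bax* (log2 ratios of 0.38 and 0.42) and *Htra2* (0.52 and 0.49) under the upper limit. Both centrings put *Apaf1* (0.75 and 0.68) past it. With GC content *Birc3* (0.65) and *Casp12* (0.80) passed it too, and with transcript length *Casp6* (-0.63) passed the lower limit. The median log2 ratio of FPKM + 0.1 was 0.19 over the members and 0.02 over all 17585 genes above 0 in a library. At 2 times, 6 members were higher and none was lower, beside 11.8% and 4.98% of all genes. The plot of levels in both libraries shows each member in turn.

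**Figure D1:**
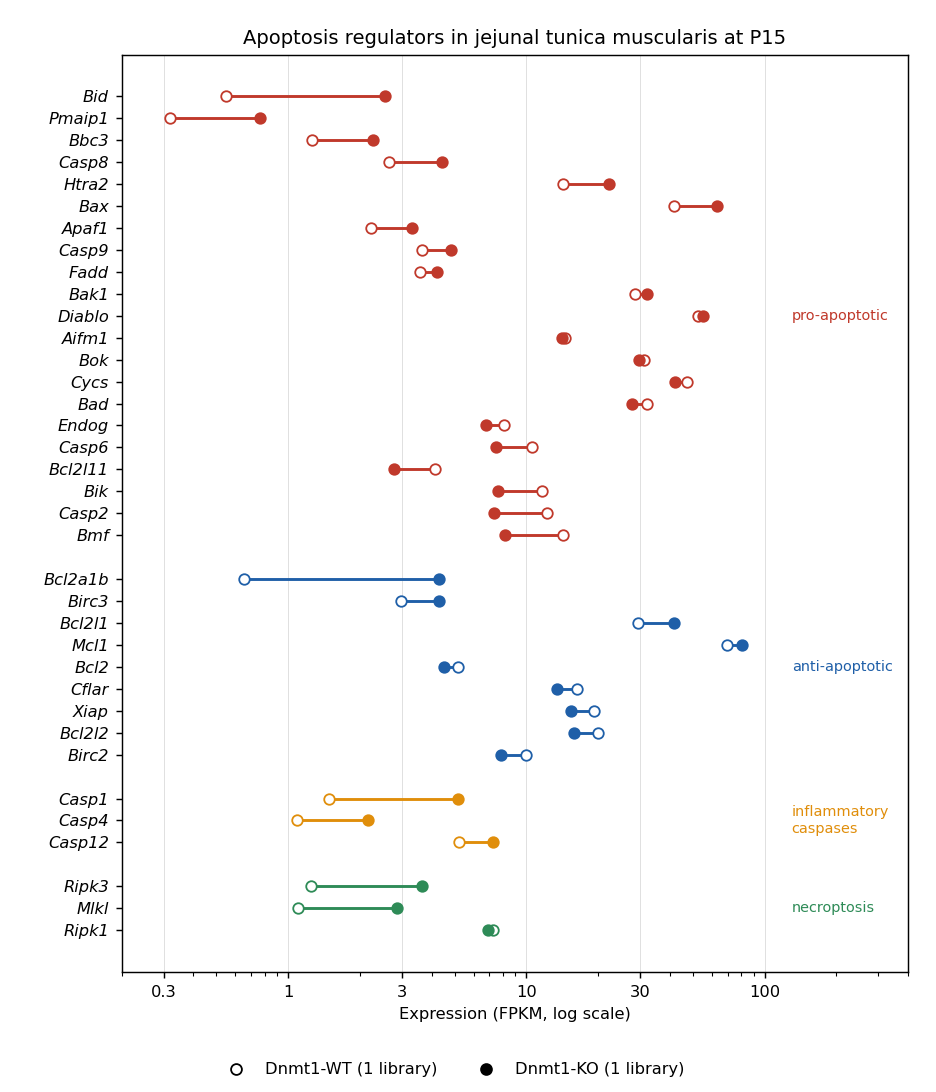
Expression of the 36 members in *Dnmt1*-WT (open circles) and *Dnmt1*-KO (filled circles), in FPKM on a log axis, with 1 library for each genotype and a line joining both values of a gene. Within each group the genes are ordered by their ratio, and all 3 inflammatory caspases lie to the right in *Dnmt1*-KO while the 21 pro-apoptotic genes split into 11 higher and 10 lower.

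The 21 pro-apoptotic genes were divided: 11 were higher in *Dnmt1*-KO, beside 50.3% of all genes, and 10 lower. Of the 21, 6 (28.6%) were at least 1.5 times higher and 3 (14.3%) at least 1.5 times lower, beside 19.7% and 12.6% of all genes. With a pseudocount of 1 the first count was 3, and with FPKM sum scaling the counts were 4 and 5. Their median log2 ratio was 0.07, and it changed sign to -0.032 with each library divided by its FPKM sum. Their summed level was 337.45 FPKM in *Dnmt1*-WT and 348.76 FPKM in *Dnmt1*-KO.

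Among the 7 BH3-only genes, the sensors that start the mitochondrial pathway, the 3 scarcest in *Dnmt1*-WT were higher and the other 4 lower in *Dnmt1*-KO. *Bid*, which links caspase-8 to mitochondria, was 0.55 FPKM in *Dnmt1*-WT and 2.54 FPKM in *Dnmt1*-KO, a ratio of 4.62 and the highest of the pro-apoptotic genes. *Bbc3*, which encodes PUMA, a p53 target, was 1.26 and 2.26 FPKM (ratio 1.79). *Pmaip1*, which encodes NOXA, an MCL1 antagonist, was 0.32 and 0.76 FPKM (ratio 2.38), the lowest levels of any member. In the opposite direction, *Bmf*, whose protein is held at the cytoskeleton and takes part in death after detachment, was 14.29 FPKM in *Dnmt1*-WT and 8.11 FPKM in *Dnmt1*-KO, the lowest ratio of all members at 0.568. *Bik*, a BH3-only gene whose protein sits largely at the endoplasmic reticulum, was 11.69 and 7.61 FPKM (ratio 0.651). *Bcl2l11*, which encodes BIM, lay just outside the limit with 4.14 and 2.78 FPKM (ratio 0.671), and *Bad*, whose protein is kept inactive by survival kinases, was the most abundant of the class with 32.02 and 27.76 FPKM (ratio 0.867). The 3 higher genes thus had the lowest *Dnmt1*-WT levels of the class, and the 4 lower genes the highest. The *Dnmt1*-WT level is also the denominator of the ratio, so level and ratio are not independent. Reads over *Bid* may be shared with *Bcl2l13* on the opposite strand, which overlaps 17.7% of the exon bases of *Bid* and was 6.61 and 6.82 FPKM.

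The effectors that form the mitochondrial pore were among the most abundant members. *Bax* was 41.76 FPKM in *Dnmt1*-WT and 63.2 FPKM in *Dnmt1*-KO, a ratio of 1.51 that lay just inside the limit and a difference of 21.44 FPKM, the largest of any member. *Bak1*, its close relative, was 28.71 and 32.23 FPKM (ratio 1.12). *Bok*, an effector that does not need BH3-only proteins for its activity, was 31.33 and 29.59 FPKM (ratio 0.944). *Bax* was thus the most abundant effector in both libraries, and stood further above the others in *Dnmt1*-KO. The annotated gene *Gm45808*, on the same strand, overlaps 12.2% of the exon bases of *Bax*, and reads of both cannot be told apart there.

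Among the 4 apoptotic caspases, both initiators of the classical pathways were higher and the other two lower. *Casp8*, the death receptor initiator, was 2.64 and 4.41 FPKM (ratio 1.67), and *Casp9*, the apoptosome initiator, was 3.66 and 4.85 FPKM (ratio 1.33). *Casp2*, the caspase of the PIDDosome, was 12.21 FPKM in *Dnmt1*-WT and 7.33 FPKM in *Dnmt1*-KO (ratio 0.600). *Casp6*, which cuts nuclear lamins, was 10.55 and 7.43 FPKM (ratio 0.704). The 4 caspases, which spanned 2.64 to 12.21 FPKM in *Dnmt1*-WT, lay between 4.41 and 7.43 FPKM in *Dnmt1*-KO.

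The mitochondrial factors released by the pore, and the adaptor of the apoptosome, mostly differed little. *Htra2*, a serine protease that removes IAPs, was 14.24 and 22.3 FPKM (ratio 1.57). Its exons overlap those of *Aup1* on the opposite strand over 25.6% of their bases, and *Aup1* was 61.56 and 75.75 FPKM, so that reads of both genes cannot be told apart there without strand. Genes on the opposite strand likewise overlap *Htra2* elsewhere (*Loxl3*, 18.2% of exon bases), *Endog* (*Spout1*, 35.7%), *Diablo* (*B3gnt4*, 21.5%), *Bad* (*Gpr137*, 20.5%) and *Bak1* (*Ggnbp1*, up to 18.2%). Besides *Bax*, annotated protein-coding genes on the same strand overlap *Bcl2a1b* (*Gm29094*, 49.1%), *Diablo* (*Gm49027*, 19.3%) and *Bcl2l2* (*Gm20521*, 13.3%). *Apaf1*, the scaffold of the apoptosome, lay just outside the limit with 2.23 and 3.3 FPKM (ratio 1.48). *Diablo*, the IAP antagonist SMAC, was the most abundant of the class with 52.38 and 54.96 FPKM (ratio 1.05). *Cycs*, which encodes cytochrome c, was 47.27 and 42.29 FPKM (ratio 0.895), with 28.2% of its 50-base stretches also present in other genes, mainly processed copies. The nuclease gene *Endog* was 8.09 and 6.77 FPKM (ratio 0.837), and *Aifm1*, which encodes the flavoprotein AIF, was 14.55 and 14.08 FPKM (ratio 0.968). The sign for *Diablo* changed with FPKM sum scaling, that for *Aifm1* with upper quartile scaling and that for *Cycs* when ratios were centred on GC content. *Fadd*, the adaptor of death receptors, was 3.56 and 4.2 FPKM (ratio 1.18).

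The 9 anti-apoptotic genes held 4 that were higher in *Dnmt1*-KO, beside 50.3% of all genes, and 5 that were lower. Of the 9, 1 was at least 1.5 times higher, or 11.1%, and none at least 1.5 times lower, beside 19.7% and 12.6% of all genes. Their median log2 ratio was -0.19, and it was 0.055 and 0.029 when ratios were centred on transcript length and on GC content. Their summed level was 173.3 FPKM in *Dnmt1*-WT and 188 FPKM in *Dnmt1*-KO.

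Within the BCL2 family, *Mcl1*, a short-lived survival protein, was the most abundant of all members with 69.48 and 80.74 FPKM (ratio 1.16). *Bcl2l1*, which encodes BCL-XL, was 29.57 and 41.59 FPKM (ratio 1.41). *Bcl2l2*, which encodes BCL-W, was 19.9 and 15.86 FPKM (ratio 0.797). *Bcl2*, the founding member, was low beside these with 5.16 and 4.5 FPKM (ratio 0.872), and its sign changed when ratios were centred on transcript length. *Bcl2a1b*, an A1 gene known mainly from blood cells, was 0.65 FPKM in *Dnmt1*-WT and 4.28 FPKM in *Dnmt1*-KO, a ratio of 6.58 that exceeded those of 98.1% of genes. Of its 50-base stretches, 79.2% also occur in other genes, mostly the A1 copy *Bcl2a1d*, so the level of each copy is uncertain. *Bcl2a1a* was 0.15 and 1.26 FPKM, *Bcl2a1d* was listed at 0 in *Dnmt1*-WT and at 2.04 FPKM in *Dnmt1*-KO, and the 3 copies summed to 0.8 and 7.58 FPKM. Reads shared between the 3 copies could raise them together, so they are not separate observations. Their sum was higher in the library in which the leukocyte markers were higher, and the part of those cells in the result was not tested.

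Of the inhibitors that act on caspases, 3 were lower and 1 was higher. *Xiap*, which blocks active caspases, was 19.28 and 15.42 FPKM (ratio 0.800), although its sign changed when ratios were centred on GC content. *Cflar*, the decoy of caspase-8 known as cFLIP, was 16.32 and 13.5 FPKM (ratio 0.827). *Birc2* and *Birc3*, which encode the paralogous ubiquitin ligases cIAP1 and cIAP2, lie next to each other on the minus strand of chromosome 9, at chr9:7818227-7837064 and chr9:7848699-7873186. *Birc2* was 9.97 and 7.81 FPKM (ratio 0.783), and *Birc3*, a gene induced by NF-κB, was 2.97 and 4.3 FPKM (ratio 1.45). These neighbours thus differed in direction.

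A ratio of sums within a library does not depend on the scaling between libraries. The 10 pro-apoptotic BCL2 family genes, BH3-only and effectors together, summed to 166.07 FPKM in *Dnmt1*-WT and 176.84 FPKM in *Dnmt1*-KO, and the 5 anti-apoptotic ones to 124.76 and 146.97 FPKM. The quotient of pro- to anti-apoptotic sums was therefore 1.33 in *Dnmt1*-WT and 1.20 in *Dnmt1*-KO. Split by role, the quotient of BH3-only to anti-apoptotic sums was 0.515 and 0.353, and that of effectors to anti-apoptotic sums was 0.816 and 0.851. The BH3-only arm was thus smaller, and the effector arm close to level, relative to the survival genes. *Bax* made up 25.1% of the pro-apoptotic sum in *Dnmt1*-WT and 35.7% in *Dnmt1*-KO, while *Mcl1* made up 55.7% and 54.9% of the anti-apoptotic sum. Quotients of single genes depended on the partner chosen. *Bax* to *Bcl2* was 8.09 and 14.0, whereas *Bax* to *Bcl2l1* was 1.41 and 1.52 and *Bax* to *Mcl1* was 0.601 and 0.783. *Bmf* to *Bcl2l1* went the other way, with 0.483 and 0.195. Outside the family, *Casp8* to its decoy *Cflar* was 0.162 and 0.327, and *Diablo* to its target *Xiap* was 2.72 and 3.56.

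**Figure D2:**
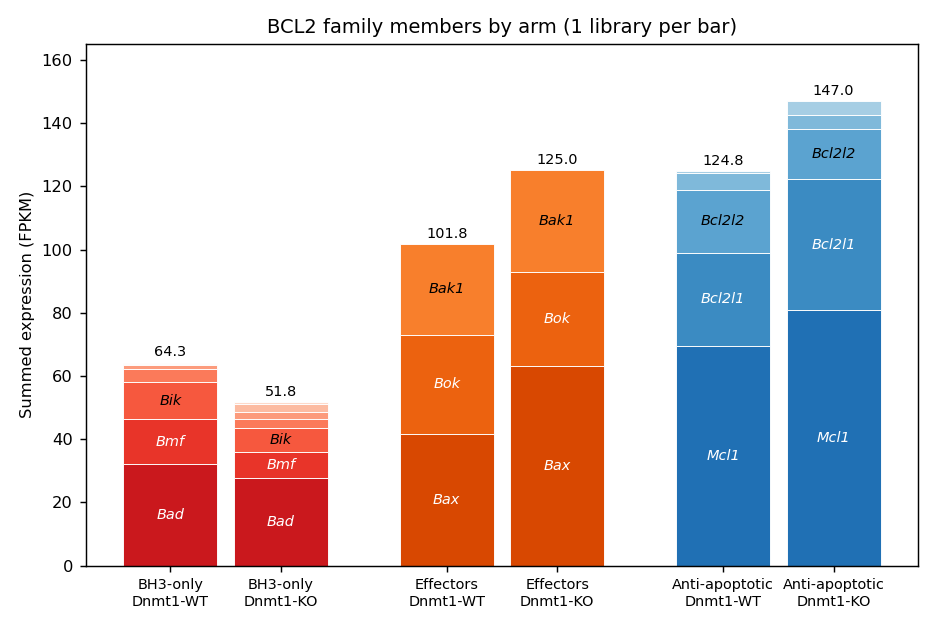
Summed expression in FPKM of the BH3-only, effector and anti-apoptotic BCL2 family members in *Dnmt1*-WT and *Dnmt1*-KO, with 1 library for each bar, each gene as a segment and the sum above the bar. The BH3-only sum was 64.3 and 51.8 FPKM, the effector sum 101.8 and 125.0 FPKM, and the anti-apoptotic sum 124.8 and 147.0 FPKM.

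The inflammatory caspases and the necroptosis genes other than *Ripk1* were higher in *Dnmt1*-KO. *Casp1*, the protease of the inflammasome, was 1.49 FPKM in *Dnmt1*-WT and 5.19 FPKM in *Dnmt1*-KO, a ratio of 3.48. *Casp4*, the mouse caspase-11 gene whose protein senses bacterial lipopolysaccharide in the cytosol, was 1.09 and 2.17 FPKM (ratio 1.99). *Casp12*, known from the endoplasmic reticulum, was 5.24 and 7.22 FPKM (ratio 1.38). The 3 genes lie in a row on the plus strand at chr9:5298517-5307265, chr9:5308828-5336783 and chr9:5345430-5373032, and none shares a 50-base stretch with another gene. Among the necroptosis genes, *Ripk3*, the kinase that phosphorylates MLKL, was 1.25 and 3.64 FPKM (ratio 2.91). *Mlkl*, which permeabilises the plasma membrane, was 1.1 and 2.86 FPKM (ratio 2.60). *Ripk1*, the kinase that also serves survival signalling, was 7.25 and 6.91 FPKM (ratio 0.953), with a sign that changed when ratios were centred on transcript length or GC content. The median log2 ratio was 0.93 over the 3 inflammatory caspases and 1.30 over the 3 necroptosis genes.

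The levels of these genes are set beside markers of the cells that the tissue could hold. Beside the leukocyte and macrophage lists given above, all 6 T cell markers were higher, summing to 1.06 and 5.39 FPKM, led by *Cd4* at 0.29 and 2.37 FPKM, with *Cd3e*, *Cd3d* and *Cd8a* listed at 0 in *Dnmt1*-WT. Of the 5 neutrophil markers found, which summed to 7.63 and 9.26 FPKM, 4 were higher, with *S100a8* listed at 0 in *Dnmt1*-WT. The most abundant, *Camp*, was the lower one at 6.84 and 5.71 FPKM and made up most of the sum. Of the 8 enterocyte markers, which summed to 88.7 and 167.31 FPKM with none at 0, 7 were higher, led by *Fabp2* at 38.79 and 85.06 FPKM. The lower one was *Sis* at 1.93 and 0.51 FPKM (ratio 0.264). The part of these cell types in the levels of the members was not tested.

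Scarce genes differed more between these libraries than abundant genes did, so the members were also set beside genes of like level. Among the 15 members with a geometric mean of both libraries under 5 FPKM, 13 were higher in *Dnmt1*-KO, 9 were at least 1.5 times higher and none was at least 1.5 times lower, with a median log2 ratio of 0.80. Of the 6867 genes of that range, 55.9% were higher, 32.5% at least 1.5 times higher and 16.8% at least 1.5 times lower. Among the 21 members from 5 to 100 FPKM, 7 were higher, 2 were at least 1.5 times higher and 3 at least 1.5 times lower, with a median of -0.16. Of the 8587 genes there, 45% were higher, 9.84% at least 1.5 times higher and 9.63% at least 1.5 times lower. Of the 11 members at least 1.5 times higher, 9 were thus scarce genes, and the others were *Bax* and *Htra2*.

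**Figure D3:**
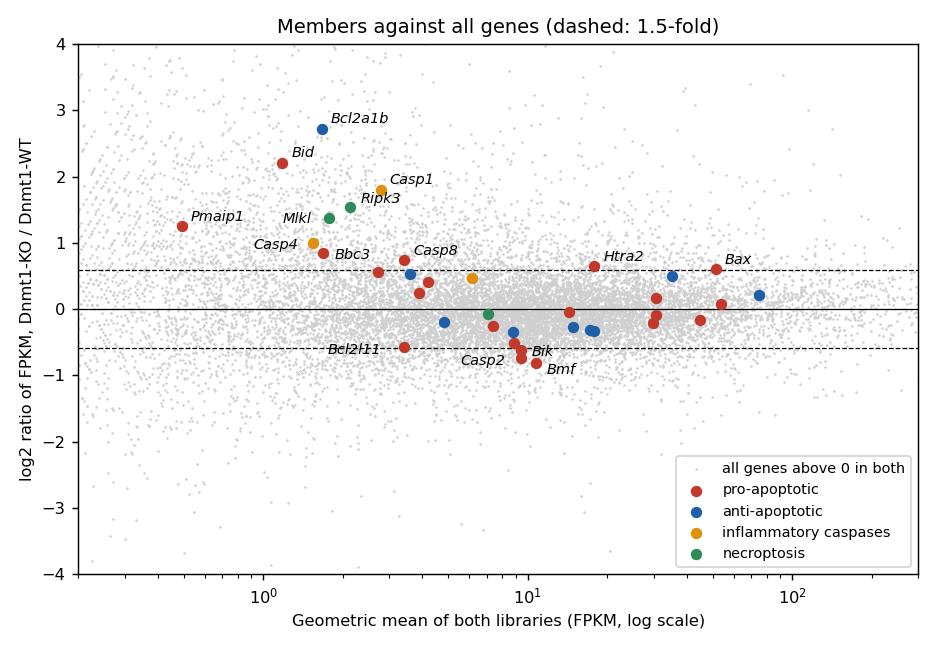
Log2 ratio of FPKM between *Dnmt1*-KO and *Dnmt1*-WT against the geometric mean of both libraries (FPKM, log axis), for the 36 members by group and for genes above 0 in both libraries (grey), of which 1198 of 16102 lie outside the plotted range. Members at 1.5-fold or past it and *Bcl2l11* are named, the dashed lines mark 1.5-fold, and 9 of the 11 members above the upper line lie under 5 FPKM.

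The members' promoters were compared by the same values. The highest CpG count of a gene's windows had a median of 15 over the 12941 expressed genes with a window, and members were divided there, a limit set with the data in view. By GENCODE, every window of *Casp8*, *Bak1*, *Bbc3* and *Xiap* lies within the span of the gene. Of the 18 members under 15 CpG sites, 11 were higher in *Dnmt1*-KO and 7 were at least 1.5 times higher, with a median log2 ratio of 0.47, beside 26.9% at least 1.5 times higher and a median of 0.11 over all genes of that class. Of the 15 members with 15 or more, 7 were higher and 2 at least 1.5 times higher, with a median of -0.05, beside 11.7% and a median of -0.05 over all such genes. Over all expressed genes with a window, 3565 of 6348 with under 15 sites and 3009 of 6593 with 15 or more were higher. Under a geometric mean of 5 FPKM, all 7 members with few CpG sites were higher, beside 1705 of 2924 genes. Of these members, 6 were at least 1.5 times higher, beside 38% of all such genes. Of the 7 members with many sites, 5 were higher, beside 1000 of 1972 genes, and 2 at least 1.5 times higher, beside 23.3%. From 5 FPKM up, 4 of 11 members with few sites were higher, beside 1276 of 2526 genes, and 2 of 8 with many, beside 1938 of 4509. Members with many CpG sites and a ratio of at least 1.5 were *Bid* and *Bbc3*, with 18 and 37 sites, and *Ripk3* and *Mlkl* had 8 and 5. At a ratio of at most 0.667 was 1 member of each class, *Casp2* with 17 sites and *Bmf* with 8. Over all genes, 11.1% of those with many sites and 14.1% of those with few were at most 0.667. The part of CpG content in these ratios was not tested, and methylation of these windows was not analysed here.

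**Figure D4:**
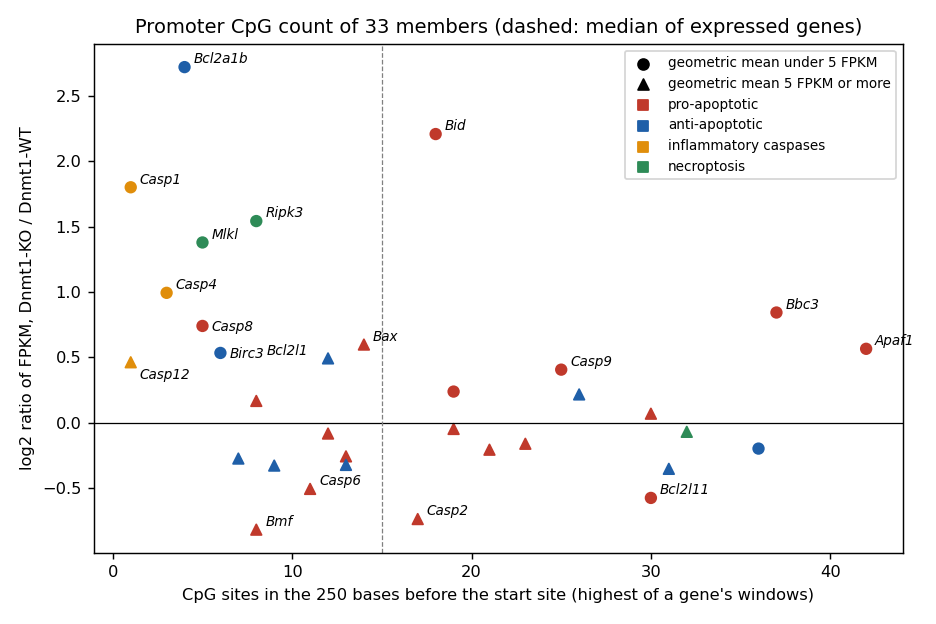
Log2 ratio of FPKM between *Dnmt1*-KO and *Dnmt1*-WT against the number of CpG sites in the 250 bases before the start site (the highest of a gene's windows), for the 33 members with a window, coloured by group, with circles under and triangles at or above a geometric mean of 5 FPKM. The dashed line marks 15 CpG sites, and all 7 circles to its left lie above 0.

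Motif letters were searched in the same windows on both strands. A form of the κB element bound by NF-κB, GGG and TTTCC with any 2 bases between them, occurred in 464 of 32851 windows, or 1.41%, and in 5 of the 46 windows of members, belonging to the 4 genes *Casp4*, *Bbc3*, *Bcl2l1* and *Mcl1*. The windows of *Casp4* overlap and hold the same pair of matches, so that pair is counted in both. The CArG box, the element of serum response factor in smooth muscle genes, occurred in 1.47% of all windows and in 0 of the 46, which says only that these letters are not in these windows. The κB stretches are printed 5′ to 3′ on the gene's strand with the match in capitals (GGAAA and CCC with 2 bases between where it lies on the other strand), because *Casp4* holds a pair of them. The matches of *Casp4* lie at chr9:5308746-5308775 and chr9:5308825-5308848 (plus strand, the latter ending at the RefSeq start site), those of the others at chr7:16309437-16309466 (*Bbc3*, plus), chr2:152830916-152830945 (*Bcl2l1*, minus) and chr3:95658683-95658712 (*Mcl1*, plus). By GENCODE, the latter match of *Casp4* and those of *Bbc3* and *Bcl2l1* lie within the span of the gene.
Casp4: atgagttacaGGGGATTTCCccacagcagt
Casp4: cctatgctaaGGAAATGCCCagta
Bbc3: ctggctgccgGGAAACCCCCcgcgccgagg
Bcl2l1: tacgcctctcGGAAAAACCCgggagtggtc
Mcl1: ccagccctccGGAAACGCCCgcccctttcc
The 4 genes were all above their *Dnmt1*-WT level in *Dnmt1*-KO, with ratios from 1.16 to 1.99, as were 50.3% of all genes, and a match is a description of the letters, not of binding.

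Each gene also has a listed number of transcript variants per library. The number was the same in both libraries for 24 of the 36 members, or 66.7%, beside 73.9% of all genes. More variants in *Dnmt1*-KO were found for 4 members, or 11.1% beside 12.5%: *Mlkl* had 3 in *Dnmt1*-WT and 5 in *Dnmt1*-KO, *Bcl2l11* 4 and 5, *Bmf* 2 and 3, and *Bbc3* 1 and 2. Fewer were found for 8 members, or 22.2% beside 13.6%, namely *Apaf1*, *Fadd*, *Bcl2*, *Birc2*, *Cflar*, *Casp4*, *Ripk1* and *Ripk3*. *Bmf* and *Bcl2l11* thus had more variants at a lower level, and *Ripk3*, *Casp4*, *Apaf1* and *Fadd* had fewer at a higher level. As many went the other way: *Mlkl* and *Bbc3* had more at a higher level, and *Bcl2*, *Birc2*, *Cflar* and *Ripk1* had fewer at a lower level.

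Other genes of the same pathways were taken from gene lists. Of the 13 death receptor genes and adaptors detected, 8 were higher and 5 lower, with 3 (23.1%) at least 1.5 times higher and 1 (7.69%) at least 1.5 times lower, beside 19.7% and 12.6% of all genes. The TNF receptor *Tnfrsf1a* was the most abundant at 65.32 and 77.91 FPKM. Of the 12 inflammasome and pyroptosis genes, 11 were higher and none was lower, with a median log2 ratio of 1.04. Of the 10 present in both libraries, 6 (60%) were at least 1.5 times higher, beside 19.7% of all genes. Most of these 10 genes had a geometric mean under 5 FPKM, where 32.5% of all genes were at least 1.5 times higher. *Zbp1*, a nucleic acid sensor that engages RIPK3, was 1.15 and 7.22 FPKM (ratio 6.28). *Pycard*, the adaptor ASC that joins sensors to caspase-1, was 2.43 and 5.96 FPKM (ratio 2.45), and *Dfna5*, which encodes gasdermin E, was 0.67 and 2.81 FPKM (ratio 4.19). *Gsdmd*, the substrate of the inflammatory caspases, was by contrast 20.31 and 22.7 FPKM (ratio 1.12), and *Il1b* was 0.16 FPKM in both. The adaptor upstream of caspase-1 thus had a higher ratio than the pore-forming substrate.

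*Bax*, *Bbc3* and *Pmaip1* are known targets of p53. Of 11 other p53 target genes outside the set, 7 were higher and 4 lower, 6 (54.5%) were at least 1.5 times higher and none at least 1.5 times lower, beside 19.7% and 12.6% of all genes, with a median log2 ratio of 0.72. *Cdkn1a*, the cell cycle inhibitor p21, was 14.72 and 124.9 FPKM, and *Sesn2*, a stress-induced regulator of mTORC1, was 1.72 and 5.59 FPKM. *Mdm2*, the ubiquitin ligase of p53, was 17.23 and 15.51 FPKM (ratio 0.900). The part of p53 in the levels of the members was not tested. Of the 7 genes of the endoplasmic reticulum stress response, 6 were higher and 2 (28.6%) at least 1.5 times higher, beside 50.3% and 19.7% of all genes, these being *Chac1*, a glutathione-degrading enzyme, at 0.46 and 2.96 FPKM, and *Trib3*, a pseudokinase, at 0.55 and 3.14 FPKM.

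**Figure D5:**
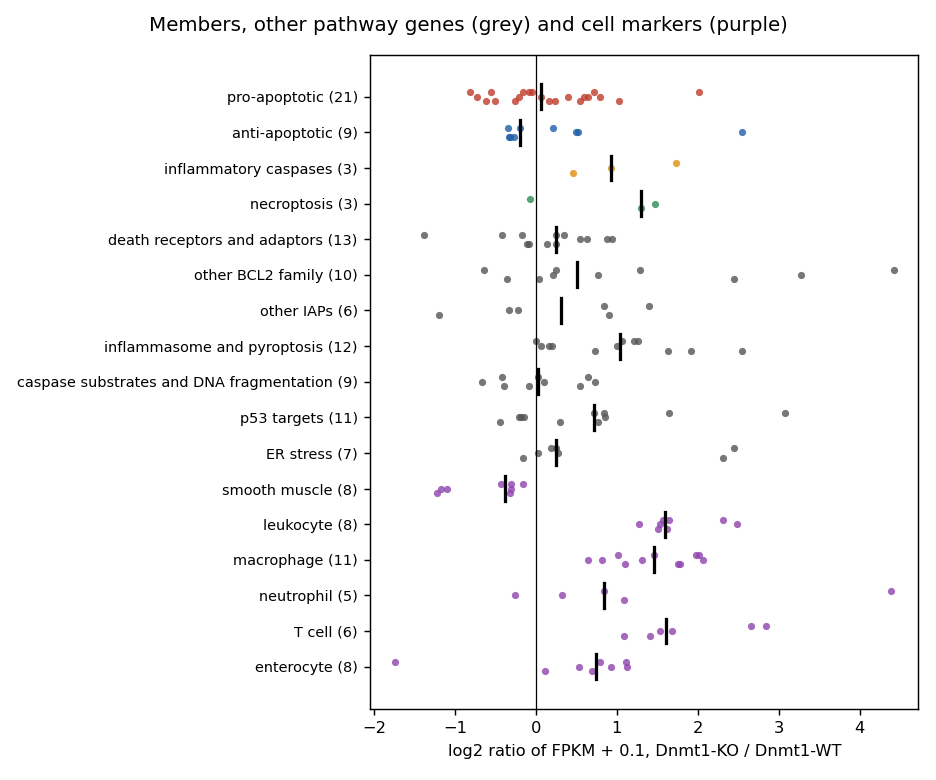
Log2 ratio of FPKM + 0.1 between *Dnmt1*-KO and *Dnmt1*-WT for each gene above 0 in a library, by list, with the number of genes in brackets and a black bar at the median; vertical offsets within a list carry no meaning. The medians run from -0.38 for the smooth muscle markers to 1.61 for the T cell markers, with 0.07 for the pro-apoptotic and -0.19 for the anti-apoptotic members.

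The remaining lists were mixed. Of the other 10 BCL2 family genes detected, 8 were higher. Of the 8 present in both libraries, 3 (37.5%) were at least 1.5 times higher, beside 19.7% of all genes. All 3 had a geometric mean under 1 FPKM, where 44% of all genes were at least 1.5 times higher. *Bcl2l15*, a family member known from the gut epithelium, was 0.27 and 3.49 FPKM (ratio 12.9), in the library with the higher enterocyte sum, and the part of those cells was not tested. Of the other 6 IAP genes detected, 3 were higher and 3 lower. Of the 5 present in both libraries, 3 (60%) were at least 1.5 times higher, beside 19.7% of all genes. Apart from *Birc5*, these higher genes had a geometric mean under 1 FPKM, where 44% of all genes were at least 1.5 times higher. *Birc5*, the mitotic protein survivin, was 4.99 and 13.28 FPKM (ratio 2.66). Of the 9 caspase substrates and DNA fragmentation genes, 5 were higher and 4 lower, with 2 (22.2%) at least 1.5 times higher and 1 (11.1%) at least 1.5 times lower, shares near the 19.7% and 12.6% of all genes. *Gsn*, an actin-severing protein that caspases cut, was the most abundant of them at 213.28 and 333.42 FPKM (ratio 1.56).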

How the data were processed

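RNA of jejunal tunica muscularis at P15 was sequenced by the authors from TruSeq RNA libraries, 1 for each genotype. The submitters' processing notes name TopHat 1.4.1, Cufflinks 2.0.2 and the build mm10 (GRCm38). The deposited table gives FPKM for each gene and library, rounded by the authors, and, per the file headers, the number of transcript variants in each library. The authors' deposited ratio of both libraries was not used. No column of values lacked a sample. The table gives no read counts per gene and none were derived here, so no interval was computed, and values above 0 began at 0.03 FPKM.

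Samples were grouped by title and genotype label. The members and gene lists were chosen with earlier results of these data known. All members are named, with full values at 1.5-fold and for the most abundant of each class. Of pathway genes, those at 2-fold with at least 1 FPKM in a library are named, and of markers the most abundant in *Dnmt1*-KO. *Tnfrsf1a*, *Gsdmd*, *Il1b*, *Mdm2*, *Gsn*, *Myh11*, *Mylk*, *Smtn*, *Sis* and the markers listed at 0 (*Cytip*, *S100a8*, *Cd3e*, *Cd3d*, *Cd8a*) fall outside this rule and were named after their values were seen. Counts past a fold used plain FPKM ratios of genes above 0 in both libraries, and medians used the log2 ratio of FPKM + 0.1. The counting was run on simulated data with large planted differences and little noise, a check of the code alone that says nothing about precision. Positions, exon overlaps and stretches of 50 bases shared between transcripts came from GENCODE release M21 (GRCm38), and promoter windows from RefSeq (GRCm38.p6). The alternatives were median centring, FPKM sum and upper quartile scaling, a pseudocount of 1 or 0.01, a filter at 1 FPKM, a fold of 2, other groupings, and, added after the data were seen, centring on transcript length or GC content in 10 bins. Python 3.11.15, numpy 2.4.6, pandas 2.3.3 and matplotlib 3.10.9 were used.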

Additional observations from a re-analysis of the deposited data

How the results depend on the processing

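No paired analysis was possible because each genotype has 1 library, and for the same reason no library could be left out. Of the single members, 30 of the 36 kept their sign under all 7 alternatives run on each gene. The others were *Aifm1*, *Bcl2*, *Cycs*, *Diablo*, *Ripk1* and *Xiap*, none of them at 1.5-fold without scaling. Dividing by the FPKM sum, which shifts every log2 ratio by 0.10, gave medians of -0.032 for the pro-apoptotic genes (0.07 without scaling), -0.29 for the anti-apoptotic genes (-0.19), 0.83 for the inflammatory caspases (0.93) and 1.20 for the necroptosis genes (1.30), a log2 ratio of -0.71 for *Dnmt1* (-0.60), and 5 members at least 1.5 times lower, all of them pro-apoptotic, in place of 3, so that the split of pro-apoptotic genes past the limit turned from 6 higher and 3 lower to 4 higher and 5 lower. With a pseudocount of 1 the medians were 0.60 for the inflammatory caspases and 0.88 for the necroptosis genes, and 3 pro-apoptotic genes in place of 6 were at least 1.5 times higher. Centring on transcript length moved the anti-apoptotic median to 0.055 and that of the inflammatory caspases to 0.80, and centring on GC content gave 0.19 for the pro-apoptotic genes, 0.029 for the anti-apoptotic genes and 1.28 for the inflammatory caspases. These centrings were chosen after the data were seen. With the inflammatory caspases and necroptosis genes added, the pro-apoptotic median was 0.23. At a fold of 2, 6 members and 2 pro-apoptotic genes were higher and 0 members, hence 0 pro-apoptotic genes, were lower. Upper quartile scaling put 2 anti-apoptotic genes in place of 1 past 1.5-fold. The log2 change in the quotient of pro- to anti-apoptotic BCL2 family sums was -0.15, -0.39 without the most abundant gene of each arm, and -0.31 from mean log2 values. For results other than those at a stricter fold or with fewer genes, the cause was not tested. Precision at low FPKM was not estimated, and copies such as the A1 genes could share reads.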
